A study of Mus musculus with 10 samples.

Results

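Adrenergic, muscarinic and adenosine receptors set the rate and force of the heartbeat through cyclic AMP and calcium. The transcripts of 9 genes of this system were measured in the ventricles of cardiomyopathic mice with and without cardiomyocyte RAD. They were chosen by symbol as the receptors *Adrb1*, *Adra1a*, *Adra1b*, *Chrm2* and *Adora1*, the adenylyl cyclases *Adcy5* and *Adcy6* and the receptor kinases *Grk2* and *Grk5*, out of 57185 gene rows with counts. All 9 passed the filter on low counts that left 13453 genes. The study asked whether loss of RAD, an inhibitor of the L-type calcium channel encoded by *Rrad*, reverses the dilated cardiomyopathy of mice without muscle LIM protein (MLP, encoded by *Csrp3*). RNA was sequenced from 5 MLPKO and 5 cRADΔ/Δ-MLPKO male mice (MLPKO-cRADKO in the labels). Both genotypes lacked MLP in all cells, carried floxed *Rrad* and received tamoxifen once, at 100 mg per kg and 10 weeks of age. The tissue, labelled left ventricle and taken from the apical part of the ventricles, was collected 1 month after tamoxifen, at a labelled age of 16 weeks. That age is later than 1 month after the dose. The methods of the study give a younger age, so the exact age is uncertain. Only the cRADΔ/Δ-MLPKO mice carried the MYH6-MerCreMer recombinase, which tamoxifen activates in cardiomyocytes, so effects of RAD loss and of the activated recombinase cannot be told apart in these mice.

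In cardiomyocytes, noradrenaline acts on the β1 receptor, which couples to the stimulatory G protein and adenylyl cyclase, and cyclic AMP then activates protein kinase A (PKA). PKA phosphorylates RAD, which relieves the block of the L-type channel, and it also phosphorylates troponin I and myosin binding protein C. The muscarinic M2 and adenosine A1 receptors couple to inhibitory G proteins, which lower cyclic AMP and open an inwardly rectifying potassium channel. The α1 receptors couple to Gq and phospholipase C. Receptor kinases phosphorylate occupied receptors and uncouple them from their G proteins, and a blunted β-adrenergic response is a known feature of heart failure.

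Libraries held 33457406 to 49965101 counts per mouse. Each member had at least 164 counts in every mouse, and counting error was not estimated apart from the spread between mice. MLPKO mouse 2 stood apart on the first principal component of log2 expression (55.7, against −24.0 to 22.5 in the others). In cRADΔ/Δ-MLPKO mouse 3, the 4 adipocyte markers summed to 25.9 CPM (counts scaled to a common library size), against at most 0.353 in the others. On the first principal component that mouse (−24.0) lay near mice 4 (−21.3) and 5 (−21.6) of its genotype. Below, MLPKO mouse 2 and cRADΔ/Δ-MLPKO mouse 3 are together called both mice that stood apart. *Rrad* itself was counted at 223 ± 66.2 CPM (SD, n = 5) in MLPKO and 171 ± 29.9 (n = 5) in cRADΔ/Δ-MLPKO (edgeR adjusted p = 0.29), and the transcript of the disrupted *Csrp3* at 1776 ± 917 and 840 ± 197 (edgeR adjusted p = 0.0667). Both are counts over the whole gene in whole tissue and do not measure the deleted part. The summed CPM of the 7 cardiomyocyte markers was 56271 to 65709 in MLPKO and 42514 to 55577 in cRADΔ/Δ-MLPKO, without overlap. The 6 endothelial markers (689 to 770 against 810 to 929) did not overlap either. The 6 smooth muscle and pericyte markers summed to 473 to 618 and 599 to 737, the 6 macrophage markers to 112 to 157 and 137 to 237, and the 6 fibroblast markers to 1036 to 1571 and 862 to 1527. The 7 atrial markers summed to 16.1 to 29.9 and 14.9 to 50.7, with 3 of the 7 below the filter. The 50.7 was in cRADΔ/Δ-MLPKO mouse 1 alone, and the next highest mouse of that genotype was at 23.1. Whether atrial tissue in that library bears on its values of other genes was not tested. Conduction cell markers summed to 25.5 to 42.8 and 28.3 to 54.9 with *Isl1* at 0, and neuron and Schwann cell markers to 5.10 to 10.4 and 7.27 to 10.3. Epicardial markers summed to 19.1 to 41.2 and 15.1 to 31.6. Skeletal muscle markers summed to 396 to 583 and 577 to 676, with *Myh4* at 0 and 4 of the 7 below the filter. Nearly all of that sum was *Ckm* (mean 511 CPM in MLPKO and 618 in cRADΔ/Δ-MLPKO), so it mostly gives the level of that gene. *Mylpf* (0.619 and 0.579) and *Tnni2* (0.389 and 0.389) were low in both genotypes. In bulk RNA, fewer cells of a type and less RNA per cell cannot be told apart.

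None of the 9 genes differed between the genotypes at an adjusted p under 0.05 in the quasi-likelihood test of edgeR, a test that called 2.74% of all genes tested. At an unadjusted edgeR p under 0.05, 3 genes passed, and all were lower in cRADΔ/Δ-MLPKO: the M2 receptor *Chrm2*, the A1 receptor *Adora1* and the receptor kinase *Grk5*. Of all genes tested, 11.5% were lower at that threshold and 21.6% passed it in either direction. DESeq2, run here on the same counts, gave adjusted p-values under 0.05 for the same 3 genes, and called 6.09% of its genes lower, 3.96% higher and 10.0% in all. The log2 fold change of cRADΔ/Δ-MLPKO against MLPKO was below 0 for 5 of the 9 genes (47.9% of all genes) and its median was −0.04, against 0.01 over all genes. The members that lay nearest to 0 were *Adcy6*, *Adcy5*, *Adrb1* and *Grk2*. Values of single genes below are CPM scaled by the trimmed mean of M values (TMM), listed from mouse 1 to mouse 5 of each genotype.

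**Figure D1:**
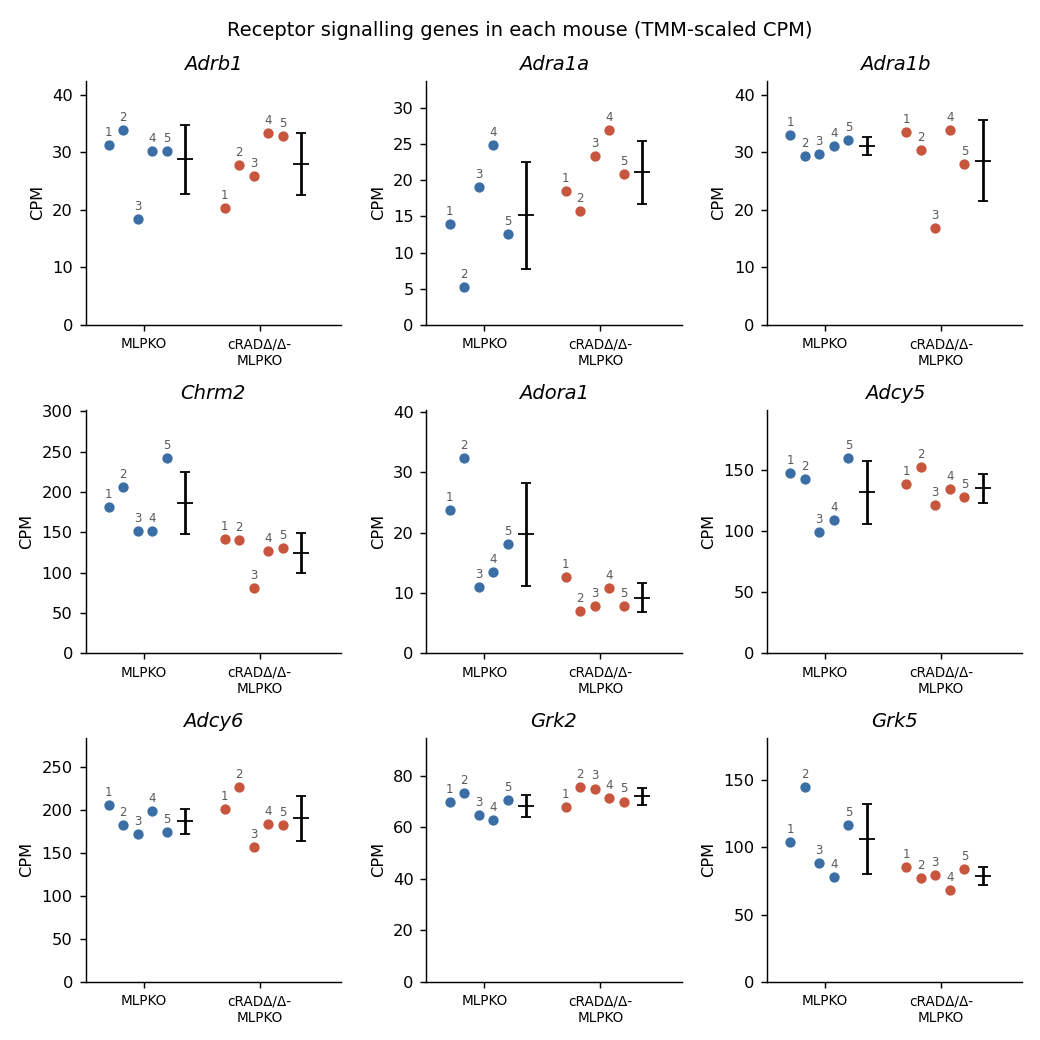
TMM-scaled CPM of each of the 9 genes (vertical axes from 0) in every mouse, with the mouse number beside each point, MLPKO in blue and cRADΔ/Δ-MLPKO in red, and the mean with SD of 5 mice as a bar. Only for *Chrm2* do all cRADΔ/Δ-MLPKO points (81.0 to 141.1 CPM) lie below all MLPKO points (151.0 to 241.7 CPM).

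*Chrm2*, which encodes the M2 receptor through which the vagus nerve slows the heart, was the only member whose genotypes did not overlap, a pattern shown by 6.62% of all genes tested. It lies on chromosome 6 (GRCm39, 36364718 to 36505582, plus strand). Its level was 181.5, 206.1, 151.0, 151.0 and 241.7 CPM in the MLPKO mice and 141.1, 140.9, 81.0, 126.9 and 130.8 CPM in the cRADΔ/Δ-MLPKO mice. The cRADΔ/Δ-MLPKO values were close together apart from mouse 3, and the MLPKO values ranged more widely, with mouse 5 highest. The mean was 186 ± 38.7 CPM (SD, n = 5) in MLPKO and 124 ± 24.9 CPM (n = 5) in cRADΔ/Δ-MLPKO, 66.6% of the MLPKO level. The log2 fold change of −0.59 (standard error, SE, 0.17, 95% interval −0.95 to −0.22) had an edgeR adjusted p of 0.0737 and a DESeq2 adjusted p of 0.0108. With each mouse left out in turn, it lay between −0.65 without MLPKO mouse 4, the only such fit with an edgeR adjusted p under 0.05 (0.0472), and −0.46 without cRADΔ/Δ-MLPKO mouse 3. Without both mice that stood apart it was −0.42 (edgeR adjusted p = 0.136).

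*Adora1*, which encodes the A1 receptor through which adenosine slows conduction and opposes β-adrenergic stimulation, had the largest log2 fold change in size of the 9. It lies on chromosome 1 (134126948 to 134163579, minus strand). Its level was 23.8, 32.3, 11.0, 13.4 and 18.1 CPM in MLPKO and 12.7, 7.0, 7.9, 10.8 and 7.8 CPM in cRADΔ/Δ-MLPKO. The overlap came from 1 mouse on each side, since MLPKO mouse 3 (11.0 CPM) lay below cRADΔ/Δ-MLPKO mouse 1 (12.7 CPM). The mean was 19.7 ± 8.56 CPM (SD, n = 5) in MLPKO and 9.23 ± 2.41 CPM (n = 5) in cRADΔ/Δ-MLPKO, or 46.8% of the MLPKO level, and the coefficient of variation was 43.4% and 26.1%. The log2 fold change of −1.09 (SE 0.28, 95% interval −1.70 to −0.49) had an edgeR adjusted p of 0.057 and a DESeq2 adjusted p of 0.00153. It lay between −1.24 without MLPKO mouse 3 and −0.85 without MLPKO mouse 2, and the edgeR adjusted p was under 0.05 without MLPKO mouse 3 (0.0362) and without MLPKO mouse 4 (0.0341). Without both mice that stood apart it was −0.79 (edgeR adjusted p = 0.131).

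The cardiomyocyte markers were also lower in cRADΔ/Δ-MLPKO, with 6 of 7 below a log2 fold change of 0, a median of −0.26 and 1 edgeR call (*Tnnt2*). When libraries were scaled to these 7 markers in place of TMM, a choice made after the data had been seen, *Adora1* had a log2 fold change of −0.85 (edgeR adjusted p = 0.037) and *Chrm2* one of −0.35 (edgeR adjusted p = 0.0533). That scaling raised the log2 fold change of the median gene by 0.24, so the differences of *Adora1* and *Chrm2* relative to all genes were those given above.

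RefSeq's promoter table (GRCm38.p6) held 6 of the 9 genes, without *Adra1a*, *Adcy6* and *Grk2*. The 250 bases before the start are shown for *Chrm2*, *Adora1* (with 2 start sites) and *Grk5*, the members with an unadjusted p under 0.05, and for *Adrb1*, whose level was close in the genotypes. They were searched on both strands for GATA sites (AGATAA, its variant TGATAA, its variant AGATAG and its variant TGATAG), NKX2-5 sites (CAAGTG and its variant TAAGTG), the core of the cyclic AMP response element (TGACG) and the CArG box of serum response factor, none of which overlap each other in these windows. Of 32851 promoters in the table, 26.5%, 18.4%, 17.8% and 1.47% held them in the same window. None of these letters occur before the start of *Chrm2* (chr6:36387834-36388083, plus strand), of *Adora1* at its sites 1 (chr1:134235458-134235707, minus strand) and 2 (chr1:134234857-134235106, minus strand), or of *Grk5* (chr19:60889499-60889748, plus strand), which are printed 5′ to 3′ on the strand of the gene.
Chrm2: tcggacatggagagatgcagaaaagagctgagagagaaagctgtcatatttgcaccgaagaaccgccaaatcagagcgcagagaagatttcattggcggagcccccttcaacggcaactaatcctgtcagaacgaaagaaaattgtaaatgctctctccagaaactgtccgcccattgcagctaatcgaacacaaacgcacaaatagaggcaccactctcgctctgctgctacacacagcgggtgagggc
Adora1 site 1: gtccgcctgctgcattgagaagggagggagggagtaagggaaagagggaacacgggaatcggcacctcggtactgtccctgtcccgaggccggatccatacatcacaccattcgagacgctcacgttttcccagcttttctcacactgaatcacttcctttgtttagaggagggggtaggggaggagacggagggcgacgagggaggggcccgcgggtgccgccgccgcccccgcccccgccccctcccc
Adora1 site 2: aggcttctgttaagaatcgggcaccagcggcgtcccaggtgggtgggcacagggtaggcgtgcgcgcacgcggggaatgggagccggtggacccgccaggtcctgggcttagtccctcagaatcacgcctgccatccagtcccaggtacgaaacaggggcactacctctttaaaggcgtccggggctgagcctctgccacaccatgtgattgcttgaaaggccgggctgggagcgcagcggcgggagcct
Grk5: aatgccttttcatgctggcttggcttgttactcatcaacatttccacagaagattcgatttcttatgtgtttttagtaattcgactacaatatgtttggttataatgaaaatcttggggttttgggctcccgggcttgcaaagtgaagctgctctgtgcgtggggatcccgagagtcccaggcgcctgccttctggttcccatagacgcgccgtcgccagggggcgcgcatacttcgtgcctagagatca
The windows of *Chrm2* and *Grk5* are 50.0% and 49.6% G and C, and those of *Adora1* 64.4% and 65.2%. In the window of *Adrb1* (chr19:56721867-56722116, plus strand), which is 74.0% G and C, the capitals mark TGACG at 90 to 86 bases before the start.
Adrb1: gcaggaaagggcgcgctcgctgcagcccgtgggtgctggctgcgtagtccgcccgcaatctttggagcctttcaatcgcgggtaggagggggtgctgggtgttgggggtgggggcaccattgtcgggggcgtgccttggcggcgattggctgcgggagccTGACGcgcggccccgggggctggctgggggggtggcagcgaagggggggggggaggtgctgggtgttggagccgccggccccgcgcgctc
The window of *Adcy5* held none of the 4 motifs, and that of *Adra1b* held a GATA site, TGATAG, at 82 to 77 bases before its first listed start. A match of letters is a description and not a site of binding.

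*Adrb1* encodes the β1 receptor, the main adrenergic receptor of the ventricular cardiomyocyte, and its level was close in the genotypes. It lies on chromosome 19 (56710631 to 56721545, plus strand). The MLPKO mice had 31.4, 33.9, 18.4, 30.2 and 30.2 CPM and the cRADΔ/Δ-MLPKO mice 20.3, 27.8, 25.8, 33.4 and 32.9 CPM. The genotypes covered nearly the same range, with MLPKO mouse 3 and cRADΔ/Δ-MLPKO mouse 1 lowest. The mean was 28.8 ± 6.02 CPM (SD, n = 5) in MLPKO and 28.0 ± 5.42 CPM (n = 5) in cRADΔ/Δ-MLPKO. For *Adrb1* the log2 fold change was −0.04 (SE 0.17, edgeR adjusted p = 0.929), and its 95% interval runs from 0.756 to 1.26 times the MLPKO level. It ranged from −0.16 to 0.06 with 1 mouse left out, so these data set no direction for *Adrb1*.

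*Adra1a* and *Adra1b* encode the α1A and α1B receptors, the Gq-coupled adrenergic receptors of the cardiomyocyte. *Adra1a* (chromosome 14, 66872700 to 67012152, plus strand) was measured at 13.9, 5.2, 19.0, 24.9 and 12.6 CPM in MLPKO and at 18.5, 15.7, 23.4, 27.0 and 20.8 CPM in cRADΔ/Δ-MLPKO. In MLPKO, 3 mice lay below every cRADΔ/Δ-MLPKO mouse, and MLPKO mouse 2, which stood apart from the other libraries, was lowest. The mean was 15.1 ± 7.38 and 21.1 ± 4.36 CPM (SD, n = 5 each), which is 0.48 on the log2 scale (SE 0.31, 95% interval −0.20 to 1.15, edgeR adjusted p = 0.406). This difference was 0.26 without MLPKO mouse 2 and 0.72 without MLPKO mouse 4. *Adra1b* (chromosome 11, 43665433 to 43792037, minus strand) was measured at 32.9, 29.4, 29.7, 31.1 and 32.1 CPM in MLPKO and at 33.5, 30.4, 16.8, 33.9 and 28.0 CPM in cRADΔ/Δ-MLPKO. It was the steadiest member in MLPKO, with a coefficient of variation of 4.92%, and cRADΔ/Δ-MLPKO mouse 3, the library with adipocyte transcripts, was low. Its log2 fold change was −0.12 (SE 0.15, edgeR adjusted p = 0.698) and 0.03 without that mouse. Counts of *Adra1b* were 1.25 to 5.65 times those of *Adra1a* in MLPKO (median 2.36) and 0.716 to 1.93 times in cRADΔ/Δ-MLPKO (median 1.34), and the ranges overlapped.

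*Adcy5* and *Adcy6* encode the adenylyl cyclases that make most cyclic AMP in cardiomyocytes and that inhibitory G proteins and calcium inhibit, and neither differed between the genotypes by more than the spread between mice. *Adcy5* (chromosome 16, 34975023 to 35126113, plus strand) was at 147.5, 143.0, 99.5, 109.3 and 159.7 CPM in MLPKO and at 138.3, 152.9, 121.4, 134.7 and 128.0 CPM in cRADΔ/Δ-MLPKO. The cRADΔ/Δ-MLPKO values lay inside the range of MLPKO. The means were 132 ± 26.0 and 135 ± 11.9 CPM (SD, n = 5 each), with a log2 fold change of 0.04 (SE 0.12, 95% interval −0.24 to 0.31, edgeR adjusted p = 0.903). *Adcy6* (chromosome 15, 98487854 to 98507957, minus strand) was at 205.8, 183.3, 172.4, 198.6 and 175.2 CPM in MLPKO and at 201.2, 227.5, 157.7, 183.6 and 182.6 CPM in cRADΔ/Δ-MLPKO. Here the lowest and the highest mouse were both cRADΔ/Δ-MLPKO. The means were 187 ± 14.6 and 191 ± 25.8 CPM (SD, n = 5 each), with a log2 fold change of 0.03 (SE 0.09, 95% interval −0.18 to 0.23, edgeR adjusted p = 0.903). The ratio of *Adcy6* to *Adcy5* counts had a median of 1.40 in MLPKO (1.10 to 1.82) and 1.43 in cRADΔ/Δ-MLPKO (1.30 to 1.49).

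The receptor kinases are described side by side. *Grk2*, the kinase that βγ subunits draw to occupied receptors, departed least from its mean of the 9 genes, and *Grk5*, a membrane-bound kinase that also enters the nucleus, was lower in cRADΔ/Δ-MLPKO at an unadjusted edgeR p under 0.05. *Grk2* (chromosome 19, 4336013 to 4356418, minus strand) was at 70.0, 73.5, 64.6, 63.0 and 70.6 CPM in MLPKO and at 67.8, 75.8, 75.1, 71.4 and 70.1 CPM in cRADΔ/Δ-MLPKO. Its values filled a narrow range that overlapped, and the coefficient of variation was 6.37% and 4.72%. Between the genotypes, the log2 fold change was 0.08 (SE 0.06, edgeR adjusted p = 0.495), and the 95% interval runs from 0.964 to 1.15 times the MLPKO level. *Grk5* (chromosome 19, 60878187 to 61087409, plus strand) was at 103.7, 145.1, 88.2, 78.2 and 116.3 CPM in MLPKO and at 85.5, 76.9, 79.6, 67.9 and 83.7 CPM in cRADΔ/Δ-MLPKO. In MLPKO, 4 mice lay above every cRADΔ/Δ-MLPKO mouse, and MLPKO mouse 4 lay among them. The mean was 106 ± 26.1 CPM (SD, n = 5) in MLPKO and 78.7 ± 6.94 CPM (n = 5) in cRADΔ/Δ-MLPKO, 74.1% of the MLPKO level. The log2 fold change of −0.43 (SE 0.14, 95% interval −0.75 to −0.12) had an edgeR adjusted p of 0.110 and a DESeq2 adjusted p of 0.0384. It was −0.52 without MLPKO mouse 4 (edgeR adjusted p = 0.0384) and −0.30 without MLPKO mouse 2, the highest mouse, and −0.29 without both mice that stood apart. Scaled to the cardiomyocyte markers it was −0.17 (edgeR adjusted p = 0.349), but that scaling raised the log2 fold change of the median gene by 0.24. Counts of *Grk5* were 1.48, 1.97, 1.36, 1.24 and 1.65 times those of *Grk2* in the MLPKO mice and 1.26, 1.01, 1.06, 0.952 and 1.20 times in the cRADΔ/Δ-MLPKO mice. Only MLPKO mouse 4 and cRADΔ/Δ-MLPKO mouse 1 crossed in this ratio, which was not tested.

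**Figure D2:**
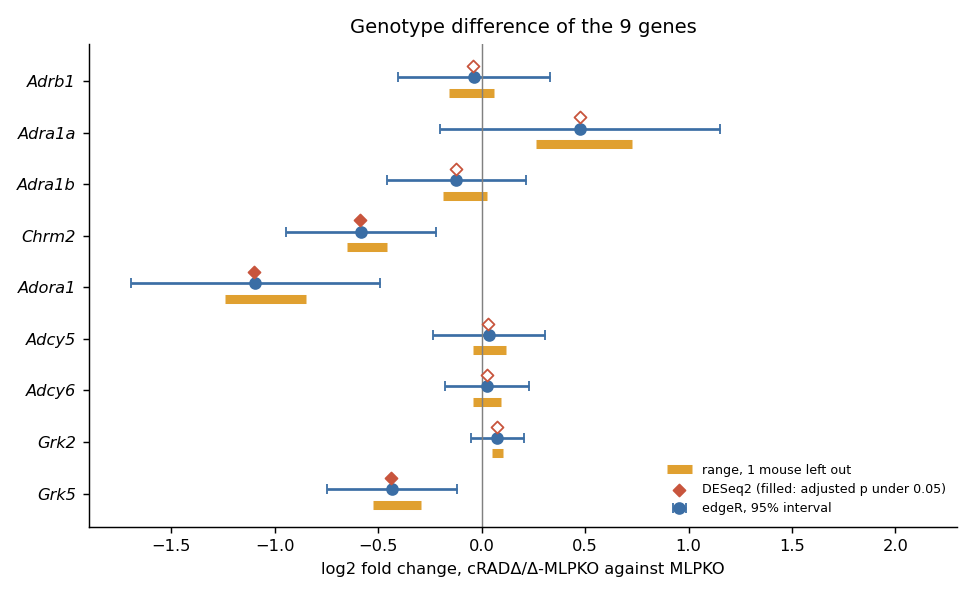
Log2 fold change of cRADΔ/Δ-MLPKO against MLPKO (horizontal axis) for the 9 genes, with the edgeR estimate and 95% interval of 5 mice per genotype (blue), the DESeq2 estimate (red diamond, filled at an adjusted p under 0.05) and the range with 1 mouse left out (orange). The intervals of *Chrm2* (−0.95 to −0.22), *Adora1* (−1.70 to −0.49) and *Grk5* (−0.75 to −0.12) lie below 0 and those of the other 6 genes span it.

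The spans of *Chrm2*, *Adora1* and *Grk5*, introns included, overlap other genes, and the use of strand in counting is not given in the sources used here. Whether exons overlap was not examined. The span of *Chrm2* shares 2857 bases with the antisense lncRNA *9330158H04Rik* (246 to 812 counts), and the span of *Grk5* shares 46067 bases with *Zfp950* on the other strand (192 to 413 counts). Against these, *Chrm2* had 2964 to 10955 and *Grk5* 2859 to 5272 counts. The span of *Adora1* shares 5354 bases with *Mybph* on the other strand, which had at most 50 counts, against 289 to 1028 for *Adora1*.

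Compared per kilobase of exon, the order of levels in MLPKO was *Adcy6* (26.9 ± 2.10 CPM per kb, SD, n = 5), *Chrm2* (26.7 ± 5.54), *Adcy5* (17.8 ± 3.51), *Grk2* (14.5 ± 0.923), *Grk5* (10.6 ± 2.60), *Adra1b* (9.18 ± 0.451), *Adrb1* (8.52 ± 1.78), *Adora1* (3.08 ± 1.33) and *Adra1a* (0.751 ± 0.366). Neighbours in this order overlapped between mice, except *Chrm2* with *Adcy5*, *Adrb1* with *Adora1* and *Adora1* with *Adra1a*. The M2 receptor was thus counted at a higher level per kb than the α1A, α1B and β1 receptors in every MLPKO mouse (21.6 CPM per kb or more, against at most 10.0 for *Adrb1*). In cRADΔ/Δ-MLPKO, *Chrm2* stood at 17.8 ± 3.57 CPM per kb (n = 5), beside *Adcy5* at 18.2 ± 1.60, and *Grk5* at 7.83 ± 0.690 came after *Adra1b* (8.43 ± 2.07) and *Adrb1* (8.29 ± 1.60), with overlap between each of these neighbours. The place of *Adra1a* depends on the length used, since its annotated exons cover 20155 bases and its canonical transcript 4372. Per kb of canonical transcript it was at 3.46 ± 1.69 in MLPKO, beside *Adora1* at 3.40 ± 1.47, and at 4.82 ± 0.997 in cRADΔ/Δ-MLPKO, where *Adora1* was at 1.59 ± 0.415.

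Taken around their means over the 10 mice, *Chrm2*, *Adora1* and *Grk5* were above the mean in MLPKO mice 1, 2 and 5. The same genes were below it in every cRADΔ/Δ-MLPKO mouse. Whether members varied together was not tested. MLPKO mouse 2 was above the mean of the 10 mice by 1.33 for *Adora1* and 0.68 for *Grk5* (log2 CPM) and below it by −1.67 for *Adra1a*. MLPKO mouse 5 was highest for *Chrm2* (0.69), and cRADΔ/Δ-MLPKO mouse 3 was lowest for *Chrm2* (−0.88) and *Adra1b* (−0.80). In *Grk2* no mouse departed by more than −0.15.

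**Figure D3:**
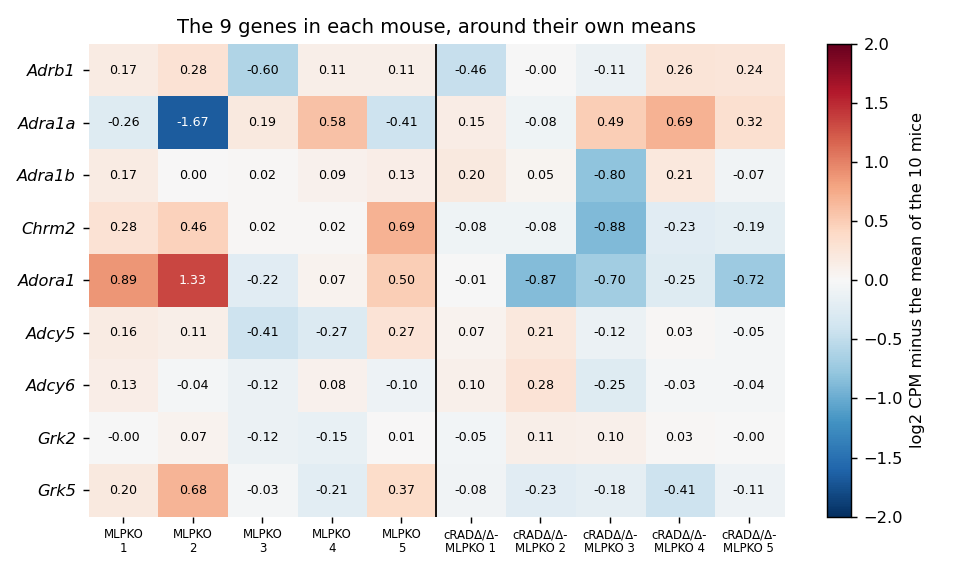
Log2 CPM of each gene (rows) in each mouse (columns, MLPKO left of the black line) minus the mean of that gene over the 10 mice, red above and blue below, with the value in each cell. MLPKO mouse 2 holds the extreme values, 1.33 for *Adora1* and −1.67 for *Adra1a*, and the row of *Grk2* is nearly white.

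Likeness over the 10 mice was described by the Pearson r of log2 CPM, without a test. It was taken across both genotypes and libraries of different depth, so genotype and libraries that stood apart can enter into r. The genes that followed *Chrm2* most closely were *Ddx3y* (r = 0.983), *Psmd6* (0.972) and *Glg1* (0.970). For *Adora1* they were *Shisa4* (0.963), *Tmtc1* (0.959) and *Fhl1* (0.957), and for *Grk5* *Hspa13* (0.984), *Usp16* (0.982) and *Osbpl9* (0.976). *Adra1a* was followed by *Hscb* (0.985), *Mme* (0.980) and *Pank1* (0.979), *Adra1b* by *Lclat1* (0.936), *F3* (0.935) and *Vamp2* (0.922), and *Adrb1* by *Rpl7-ps9* (0.942), *Sac3d1* (0.894) and *Cyfip2* (0.880). For *Adcy5* the closest were *Fbxl14* (0.946), *Foxd2os* (0.920) and *Tmem33* (0.917), for *Adcy6* *Opcml* (0.934), *Vhl* (0.899) and *Zfp871* (0.887), and for *Grk2* *Slfn2* (0.902) and *Srf* (0.901). No gene appears among the closest of more than 1 member, and no nearest neighbour was itself a member.

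Around the members, 93 other genes of the pathway were read from the same test, of which 81 passed the filter. Of these, 2 were lower in cRADΔ/Δ-MLPKO at an edgeR adjusted p under 0.05 (*Gnao1* and *Adcy1*) and 1 was higher (*Rgs5*), against 1.80% and 0.944% of all genes tested. At an unadjusted edgeR p under 0.05, 13 were lower and 8 higher (11.5% and 10.1% of all genes). DESeq2 called 9 lower and 4 higher at its adjusted p under 0.05 (6.09% and 3.96% of all its genes). Values below 0 were found in 40 of the 81, with a median of 0.00. The genotypes did not overlap for 6 of the 81, against 6.62% of all genes tested. Without both mice that stood apart, none of the 3 calls held, with log2 fold changes of −0.84 for *Gnao1* (edgeR adjusted p = 0.104), −1.31 for *Adcy1* (edgeR adjusted p = 0.106) and 0.37 for *Rgs5* (edgeR adjusted p = 0.0761).

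*Gnao1* encodes Gαo, an inhibitory-class α subunit that couples to M2 and A1 receptors. It was counted at 148.6, 213.1, 105.1, 75.7 and 156.8 CPM in MLPKO and at 96.1, 61.8, 38.8, 58.2 and 54.5 CPM in cRADΔ/Δ-MLPKO. MLPKO mouse 4 lay below cRADΔ/Δ-MLPKO mouse 1, and otherwise the genotypes were apart. The mean was 140 ± 52.5 and 61.9 ± 21.0 CPM (SD, n = 5 each), or −1.18 on the log2 scale (SE 0.28, edgeR adjusted p = 0.0476). The edgeR adjusted p was 0.0173 without MLPKO mouse 4 and 0.0367 without cRADΔ/Δ-MLPKO mouse 1, and between 0.0543 and 0.115 without any other single mouse. With robust dispersion it was 0.0689. The other α subunits, *Gnas* (−0.13) and *Gnai2* (0.00) among them, did not pass the test. *Gnas*, which encodes the stimulatory Gαs, was the most abundant of them at 1013 ± 59.5 CPM in MLPKO and 926 ± 51.8 CPM in cRADΔ/Δ-MLPKO (SD, n = 5 each, edgeR adjusted p = 0.268).

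*Adcy1* encodes a calmodulin-stimulated adenylyl cyclase best known in neurons and was expressed at a low level. It was at 4.35, 5.96, 2.33, 8.11 and 6.0 CPM in MLPKO and at 2.09, 1.26, 1.26, 1.92 and 3.08 CPM in cRADΔ/Δ-MLPKO, where only mouse 5 lay above the lowest MLPKO mouse. Its log2 fold change was −1.47 (SE 0.33, edgeR adjusted p = 0.0421), and the edgeR adjusted p was 0.0259 without MLPKO mouse 3, 0.0456 without MLPKO mouse 4 and 0.0570 to 0.0955 without any other single mouse. With limma-voom, the adjusted p was 0.0776. *Adcy7* (−0.39) and *Adcy9* (−0.05), the most abundant of the other cyclases, did not pass. *Adcy2*, *Adcy8* and *Adcy10* were below the filter.

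*Rgs5* encodes a regulator that speeds the turn-off of Gi and Gq and is abundant in pericytes. It was at 333.8, 315.4, 320.6, 388.4 and 290.3 CPM in MLPKO and at 477.7, 416.0, 516.2, 414.9 and 411.0 CPM in cRADΔ/Δ-MLPKO, without overlap, as was so for 6.62% of all genes tested. Its log2 fold change was 0.44 (SE 0.09, edgeR adjusted p = 0.0319), with an edgeR adjusted p of 0.0136 without MLPKO mouse 4, 0.0453 without MLPKO mouse 2 and 0.0518 to 0.0764 without any other single mouse. The smooth muscle and pericyte markers summed to 473 to 618 CPM in MLPKO and 599 to 737 CPM in cRADΔ/Δ-MLPKO, with overlap. Of the 5 tested markers, 4 lay above a log2 fold change of 0 and 1 of them, *Acta2* (1.24), passed the test. *Kcnj8* was at 0.22, *Abcc9* at 0.14, *Myh11* at 0.01 and *Pdgfrb* at −0.01, and the median of the 5 tested markers was 0.14. Their part in the result was not tested. All 5 tested RGS genes had a log2 fold change above 0, from 0.05 for *Rgs3* to 0.92 for *Rgs2*. *Rgs2*, a regulator selective for Gq that was named after its values were seen, was at 12.5 ± 3.16 CPM in MLPKO and 23.6 ± 7.05 CPM in cRADΔ/Δ-MLPKO (SD, n = 5 each, edgeR adjusted p = 0.0544, DESeq2 adjusted p = 0.00199).

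**Figure D4:**
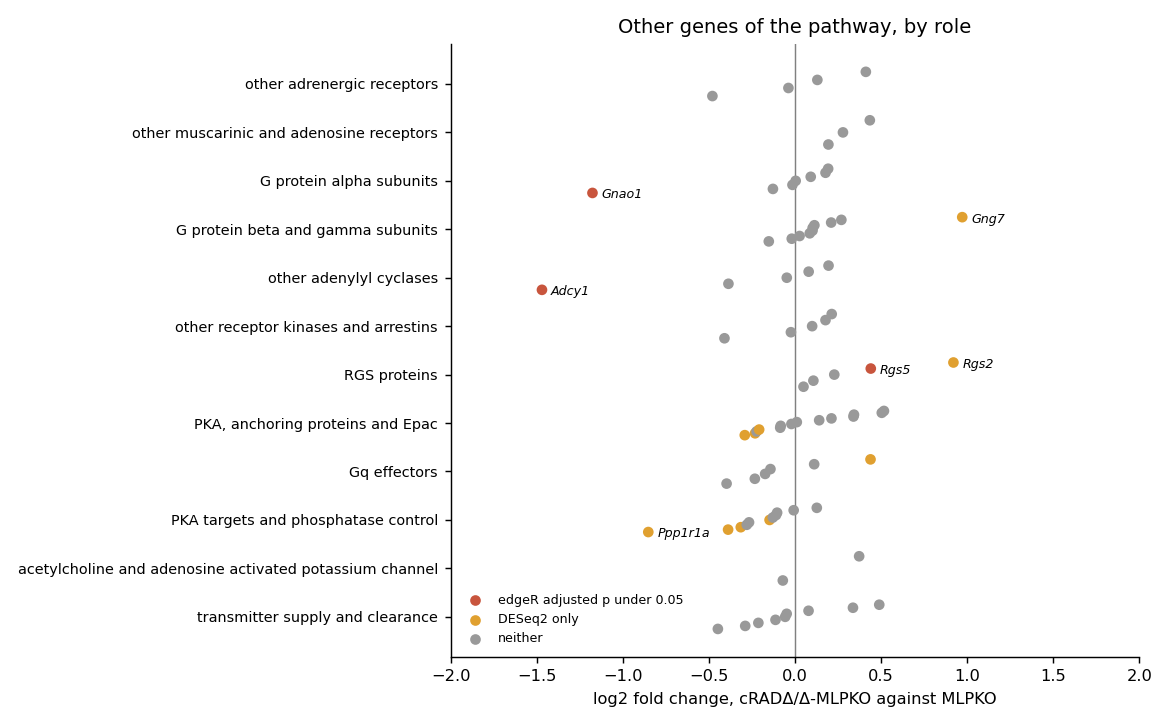
Log2 fold change of cRADΔ/Δ-MLPKO against MLPKO (horizontal axis) for the 81 tested pathway genes, 1 point per gene grouped by role (rows), in red at an edgeR adjusted p under 0.05, in orange where only DESeq2 reached it and in grey otherwise. The red points are *Gnao1* (−1.18), *Adcy1* (−1.47) and *Rgs5* (0.44), and 10 of the 11 PKA target and phosphatase genes lie left of 0.

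No gene of the remaining lists passed the edgeR test. Of the other adrenergic receptors, *Adra1d* had a log2 fold change of −0.48 (edgeR adjusted p = 0.202). *Adrb3* and *Adra2a* were below the filter, as were the muscarinic receptors *Chrm1*, *Chrm4* and *Chrm5*. Among adenosine receptors, *Adora2a*, which couples to the stimulatory G protein, had a log2 fold change of 0.19 (edgeR adjusted p = 0.503) and *Adora2b* 0.28 (edgeR adjusted p = 0.692). Among the β and γ subunits, 8 of 10 lay above 0 with a median of 0.10, and the most abundant, *Gnb1* and *Gnb2*, were at 0.11 and 0.03. *Gng7*, named after its values were seen, did not overlap between the genotypes (0.798 ± 0.226 and 1.58 ± 0.252 CPM, SD, n = 5 each), as was so for 6.62% of all genes. It had an edgeR adjusted p of 0.0507. The kinase *Grk6* (0.18) and β-arrestin 1, encoded by *Arrb1* (0.10), were the most abundant of their list.

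Downstream of cyclic AMP, 4 of the 6 PKA subunits lay below 0 and *Prkar1b* (0.34) and *Prkar2b* (0.50) above it, and none passed the edgeR test. *Prkar1a*, a regulatory subunit, was at 692 ± 114 CPM in MLPKO and 565 ± 15.1 CPM in cRADΔ/Δ-MLPKO (SD, n = 5 each), a log2 fold change of −0.29 (edgeR adjusted p = 0.117, DESeq2 adjusted p = 0.0487). *Prkaca*, the catalytic subunit, and *Prkar2a*, both named after their values were seen, did not overlap between the genotypes, with log2 fold changes of −0.23 (edgeR adjusted p = 0.0691) and −0.21 (edgeR adjusted p = 0.0841). The 14 genes of that list, with PKA anchors such as *Akap6* (−0.08), split into 7 below and 7 above 0. Of the 11 PKA target and phosphatase genes, 10 lay below 0 with a median of −0.15, 6 of them at an unadjusted p under 0.05 (11.5% of all genes were). The list holds *Mybpc3* (−0.27, edgeR adjusted p = 0.177) and *Tnni3* (0.13, edgeR adjusted p = 0.421), contractile PKA targets. It shares *Tnni3* and *Ryr2* (−0.13) with the 7 cardiomyocyte markers, whose sum was lower in these mice, so the lists are not separate measures. The part of those markers in the list's values was not tested. Of the Gq effectors, *Plcb4* was at −0.40 (edgeR adjusted p = 0.252) and *Prkca* at −0.17 (edgeR adjusted p = 0.433). The subunits of the potassium channel that M2 and A1 receptors open were at 0.37 for *Kcnj3* (edgeR adjusted p = 0.485) and −0.07 for *Kcnj5* (edgeR adjusted p = 0.88). Among genes of transmitter supply and clearance, *Adk*, which removes adenosine, was at −0.11 (edgeR adjusted p = 0.398), and *Slc6a2* and *Chat* were below the filter.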

How the data were processed

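The authors sequenced polyadenylated RNA of 10 mouse hearts, 1 library per mouse, mapped reads with STAR on GRCm39, and deposited raw counts per gene made with featureCounts, without normalization. The settings for strand, read pairs and shared reads are not given in the sources used here, and 73.7% to 80.3% of counts from 1 to 20 were even. Here, of 60676 rows, 3491 had no value. A gene was kept when 6 or more of the 10 mice had over 10 counts, and 1779 predicted genes (Gm, Rik) were dropped, which the study also did, leaving 13453. GENCODE M39 gave names and positions. Groups came from the labels. Genotypes were compared with the two-sided quasi-likelihood test of edgeR 4.0.16 (R 4.3.3, TMM) at a Benjamini-Hochberg adjusted p of 0.05 over all genes tested, with DESeq2 1.42.0 and limma-voom (limma 3.58.1) as alternatives. On simulated counts, the share of false calls was near the threshold for edgeR and limma-voom and above it for DESeq2. Those counts were drawn with the dispersions that edgeR estimated and held no library that stood apart. They therefore cannot show which DESeq2 calls in these data are false. Expression per mouse is TMM-scaled CPM, and log2 CPM has a prior count of 2. No libraries of the same genotype were duplicates.

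The 9 genes and the lists of pathway and marker genes were chosen with earlier results of these data known. The text names all 9, the called genes and the 2 most abundant genes of each pathway list, and the 3 genes most like each member, except for results that are not reported here. Others are marked as named after their values were seen. Alternatives changed size factors, filters, test, dispersion and counts (divided by 2, rounded up), used the mouse number as a block, and left out each mouse. Leaving out both mice that stood apart (MLPKO mouse 2 and cRADΔ/Δ-MLPKO mouse 3), and scaling to 7 cardiomyocyte markers, came later, with the data seen.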

Additional observations from a re-analysis of the deposited data

Results flagged for a closer look

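In groups of 5 mice, Dixon's gap test at its 95% critical value was applied to the members and the other named genes, 66 groups in all, and marked 3 mice, where chance marks about 1 in 20 groups. MLPKO mouse 3 was low for *Adrb1*, at 18.4 CPM against 30.2 to 33.9 in the other MLPKO mice. cRADΔ/Δ-MLPKO mouse 3, the library with adipocyte transcripts, was low for *Chrm2*, at 81.0 CPM against 126.9 to 141.1. cRADΔ/Δ-MLPKO mouse 1 was high for *Adcy7*, at 39.5 CPM against 15.3 to 22.3.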

How the results depend on the processing

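The 9 genes had 0 edgeR calls, and 3 with DESeq2, 1 with the mouse number as a block (*Chrm2*, edgeR adjusted p = 0.0384), 2 after scaling to cardiomyocyte markers (*Adora1* lower, *Grk2* higher) and 0 to 3 with 1 mouse left out (3 without MLPKO mouse 4, 1 without MLPKO mouse 3). The pathway genes had 3 calls, and 13 with DESeq2, 18 with marker scaling (2 lower and 16 higher), 0 without both mice that stood apart and 0 to 7 with 1 mouse left out. Over all genes there were 369 calls, and 1298 with DESeq2, 159 without both mice, 2798 with marker scaling and 47 (without MLPKO mouse 5) to 826 (without MLPKO mouse 4) with 1 mouse left out. Of the calls, 65.6% were lower, 53.9% with upper quartile size factors and 3.93% with marker scaling (110 lower and 2688 higher).

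Some directions turned. Without both mice, *Adrb1* was at 0.0633 and *Adra1b* at 0.00476. Marker scaling, which moved the median of all genes up by 0.245, gave 0.211 for *Adrb1*, 0.0978 for *Adra1b*, 0.114 for *Gnas*, 0.190 for *Adcy9*, 0.161 for *Akap6*, 0.0684 for *Prkca*, 0.139 for *Kcnj5* and 0.131 for *Adk*. *Gnai2* was at −0.000336 with RLE size factors and −0.00026 with DESeq2. With 1 mouse left out, the log2 fold change spanned 0 for *Adrb1* (−0.16 to 0.0594), *Adra1b* (−0.19 to 0.0252), *Adcy5* (−0.0441 to 0.12), *Adcy6* (−0.0412 to 0.0940), *Gnai2* (−0.0214 to 0.0261), *Adcy9* (−0.13 to 0.0214) and *Kcnj5* (−0.19 to 0.0741). *Chrm2*, *Adora1* and *Grk5* stayed below 0 and *Adra1a* and *Grk2* above 0 under every alternative run. The causes were not tested.

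Deviations of mice with the same number were at most weakly related (r from −0.04 to 0.15, over 0.1 in 1 of 5 pairs). Of the 10 mice, 4 matched their own number best. The labels give the number no meaning, and the main test did not use it. With 5 pairs, this check cannot show whether mice of the same number share anything else.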
